A study of Mus musculus with 59 samples.

Results

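Activators and repressors of Dux were described in mouse embryos cloned through somatic cell nuclear transfer (SCNT). The members are 9 genes of the 24421 in the deposited expression table, found by name: Dux itself, its activators Dppa2 and Dppa4, and the repressors Sumo2, Pias4, Chaf1a, Chaf1b, Trim28 and Zmym2. In SCNT a somatic nucleus replaces that of an egg, which is then activated so that it starts to develop. All embryos used here carry the strain label BDF1, the oocyte donors were 5 to 7 weeks old, and the donor cells of the series were cumulus cells. Collection was at 13 to 14 h after activation for 1-cell, at 20 to 21 h for early 2-cell and at 33 to 34 h for late 2-cell embryos. Late 2-cell embryos had been treated with trichostatin A (TSA), which inhibits histone deacetylases, or were untreated, and the earlier embryos were untreated. The labels list 5 libraries of poly(A) RNA in each, but the table gives each group a single value per gene, so that values below have no SD and differences no test. The labels state neither how many embryos made a library nor the dose and duration of TSA. Embryos injected with Dux were not analysed here.

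Dux is a double-homeobox transcription factor that lies in a repeated array and, in the mouse 2-cell embryo, turns on genes and retroviral elements specific to that stage. Dppa2 and Dppa4 are DNA-binding SAP-domain proteins that act as a pair and bind the Dux promoter. The repressors are known mainly from mouse embryonic stem cells, where their loss turns on Dux or brings cells into a 2-cell-like state: SUMO2 is a small protein attached to chromatin factors, PIAS4 is a ligase that attaches it, CHAF1A and CHAF1B are subunits of the chaperone CAF-1 that places histones on newly copied DNA, TRIM28 is a corepressor brought to DNA by zinc-finger proteins, and ZMYM2 is a SUMO-binding zinc-finger protein.

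Levels are given in FPKM, fragments scaled to transcript length and library total, so that genes can be set side by side. Differences are on the log2(FPKM + 1) scale, the later stage minus the earlier or TSA minus untreated, and 2-fold means a difference of at least 1. At least 1 FPKM was listed for 9419 to 12215 genes per column. All 8 oocyte markers reached 1 FPKM in every column, and so did 4 or 5 of 5 markers of the 2-cell embryo. Of 12 markers of cumulus and granulosa cells, 3 or 4 reached 1 FPKM, with a summed level of 8.27 FPKM in TSA-treated late 2-cell embryos and 15.2 to 17.2 FPKM in the others. Amh and Col1a2 were listed at 0 in 1-cell embryos, Foxl2, Amh and Col1a2 in early 2-cell, Fshr and Cyp11a1 in TSA-treated and Inhba and Ptx3 in untreated late 2-cell embryos. The part of these cells in the results was not tested. Fewer cells of a type and less RNA per cell cannot be told apart in such samples. Gapdh, a glycolytic gene, was listed under 1 FPKM in every column (0.028 to 0.91), so a value near 0 may be a failed estimate.

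Dux had values near 0 in all columns, with 0.023, 0 and 0.020 FPKM from the 1-cell to the late 2-cell stage and 0 with TSA. It passed the filter of 1 FPKM in no comparison, so each count below is over the other 8 members. Of its relatives, Duxbl1, Duxbl2 and Duxbl3 stayed under 1 FPKM in every column. Gm4981, which RefSeq places 1758 bases from Duxf3, the RefSeq symbol of Dux, on chromosome 10 from 58234848 to 58236660 (GRCm38.p6), was at 22.3 FPKM in 1-cell, 14.5 in early 2-cell and 1.61 FPKM in late 2-cell embryos. With TSA it was at 3.21 FPKM. Copies in this array can share reads, so the values of Dux and of Gm4981 are uncertain.

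Among the activators, Dppa4 had the largest difference of the members between the 2-cell stages. It was listed at 4.31 FPKM in 1-cell, 4.93 in early 2-cell and 217 FPKM in late 2-cell embryos. From being 7th of the members by level at the 1-cell stage it was the highest at the late 2-cell stage. The late 2-cell value was 44.1 times the early one in plain FPKM, a difference of 5.20, which lay above 99.5% of the 12794 genes kept in that comparison. Dppa4 lies on chromosome 16 from 48283735 to 48294292.

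Dppa2 was already the highest of the members in 1-cell embryos. Its values were 32.5 FPKM in 1-cell, 19.3 in early 2-cell and 88.8 FPKM in late 2-cell embryos, so that the early 2-cell value was the lowest. The late 2-cell value differed from the early one by 2.15 and from the 1-cell value by 1.42. The gene lies on chromosome 16 from 48310274 to 48319513, with 15981 bases between it and Dppa4. Although the proteins act as a pair, the transcripts were not at one ratio: Dppa4 was at 0.13 times the level of Dppa2 in 1-cell, 0.26 in early 2-cell and 2.45 in late 2-cell embryos, and at 2.11 with TSA.

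With TSA both activators were higher, and neither reached 2-fold. Dppa2 stood at 139 FPKM with TSA and at 88.8 FPKM without it, a difference of 0.64 that lay above 92.2% of the 12756 genes kept. Dppa4 stood at 293 FPKM with TSA and at 217 FPKM without it, by 0.43 higher, above 85.0% of genes.

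Apart from Dux, the repressors of the SUMO pathway had the lowest values of the members at the early 2-cell stage. Sumo2, on chromosome 11 from 115523109 to 115536230, was at 5.42 FPKM in 1-cell, 1.45 in early 2-cell and 23.7 FPKM in late 2-cell embryos. Among the members it alone was at least 2-fold lower at the early 2-cell than at the 1-cell stage, with a difference of -1.39, which was -0.69, short of 2-fold, with a pseudocount of 5. The late 2-cell value was higher than the early one by 3.33. With TSA, Sumo2 was at 44.2 FPKM, against 23.7 without, the largest difference of the members with TSA at 0.87, above 96.4% of genes. After median-ratio scaling this was 1.00, past 2-fold. Sumo2 has processed copies in the mouse genome, and the sources used here do not give how reads were shared among them.

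Pias4, on chromosome 10 from 81153961 to 81167720, had the lowest level of the 8 members in every column. It was at 1.66 FPKM in 1-cell, 0.59 in early 2-cell and 3.05 FPKM in late 2-cell embryos. At such levels the added 1 understates differences: between early 2-cell and 1-cell embryos the difference was -0.74, and with a pseudocount of 0.1 it was -1.34, past 2-fold. With TSA, Pias4 was at 4.74 FPKM, against 3.05 without, a difference of 0.50.

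Both genes were read beside close relatives. Sumo3, whose protein is nearly the same as that of Sumo2, was at 50.9, 60.8 and 12.6 FPKM, so that Sumo2 and Sumo3 changed order at the late 2-cell stage. Pias4 made up 1.04%, 0.65% and 4.21% of the summed PIAS genes and 7.27% with TSA, while Pias1 was at 120, 60.4 and 23.2 FPKM.

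The subunits of CAF-1 differed from each other by stage. Chaf1a, the large subunit, on chromosome 17 from 56040416 to 56068026, was at 24.6 FPKM in 1-cell, 16.8 in early 2-cell and 23.8 FPKM in late 2-cell embryos. Chaf1b, the middle subunit, on chromosome 16 from 93883900 to 93906115, was at 5.04, 5.54 and 36.6 FPKM. Chaf1b was therefore at 0.21 times the level of Chaf1a in 1-cell, 0.33 in early 2-cell and 1.54 in late 2-cell embryos. Rbbp4, the small subunit, was at 3.12, 1.64 and 4.73 FPKM, and its relative Rbbp7, a subunit of other histone complexes, was at 1259, 1341 and 217 FPKM.

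With TSA the subunits lay on opposite sides of 0. Chaf1a stood at 36.5 FPKM with TSA and at 23.8 FPKM without it, by 0.59 higher, above 90.9% of genes. Chaf1b stood at 27.3 FPKM with TSA and at 36.6 FPKM without it, a difference of -0.41, above 24.9% of genes. The level of Chaf1b was 0.75 times that of Chaf1a with TSA and 1.54 times without. These signs were the same after either scaling and with the median of all genes taken off, the settings that could change them. Chaf1a overlaps Ubxn6 in RefSeq, and the sources used here do not give whether counting used strand.

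**Figure D1:**
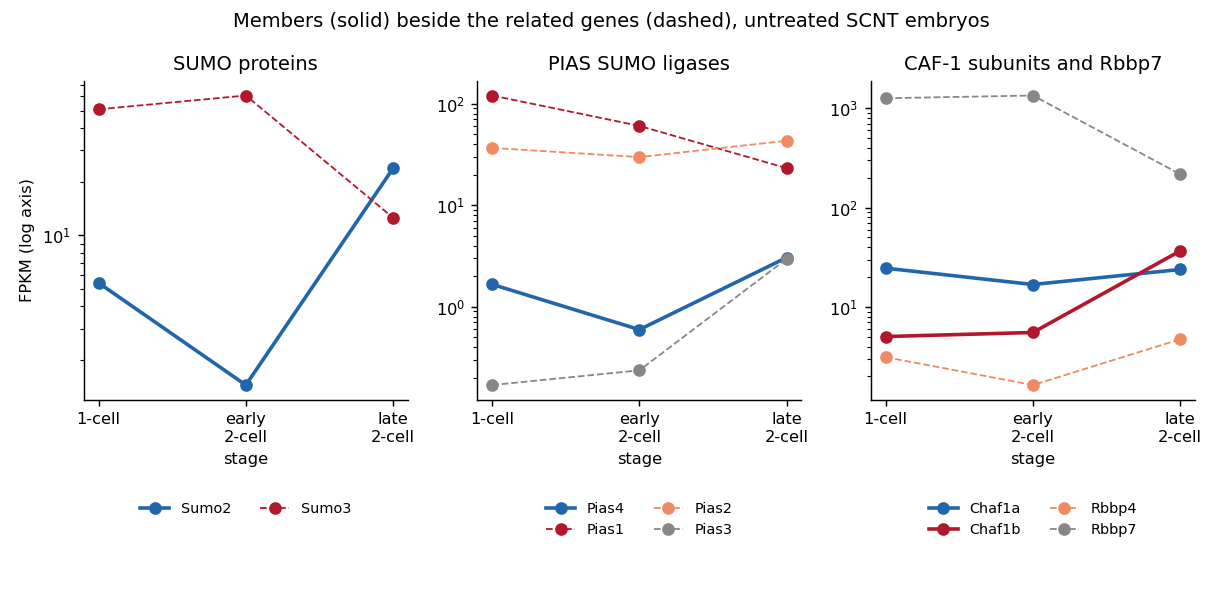
FPKM on a log axis against stage in untreated SCNT embryos, 1 value per group, for members of the rule (solid) and related genes (dashed). Sumo2 passes Sumo3 at the late 2-cell stage (23.7 against 12.6 FPKM), Pias4 stays below Pias1 at each stage, and Chaf1b passes Chaf1a at the late 2-cell stage (36.6 against 23.8 FPKM).

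The corepressors had no dip at the early 2-cell stage. Trim28, on chromosome 7 from 13024152 to 13031032, was at 5.32 FPKM in 1-cell, 6.02 in early 2-cell and 42.8 FPKM in late 2-cell embryos, the highest of the repressors there. Its late 2-cell value differed from the early one by 2.64. With TSA it was at 45.3 FPKM, against 42.8 without, a difference of 0.08. Trim28 overlaps the predicted gene Gm31649.

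Zmym2, on chromosome 14 from 56886529 to 56962358, varied by at most 0.46 between stages, with late 2-cell embryos highest. It was at 5.36 FPKM in 1-cell, 5.93 in early 2-cell and 7.77 FPKM in late 2-cell embryos. With TSA it was at 5.84 FPKM, against 7.77 without, a difference of -0.36. Zmym2 and Chaf1b were thus the members that were lower with TSA, apart from Dux.

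**Figure D2:**
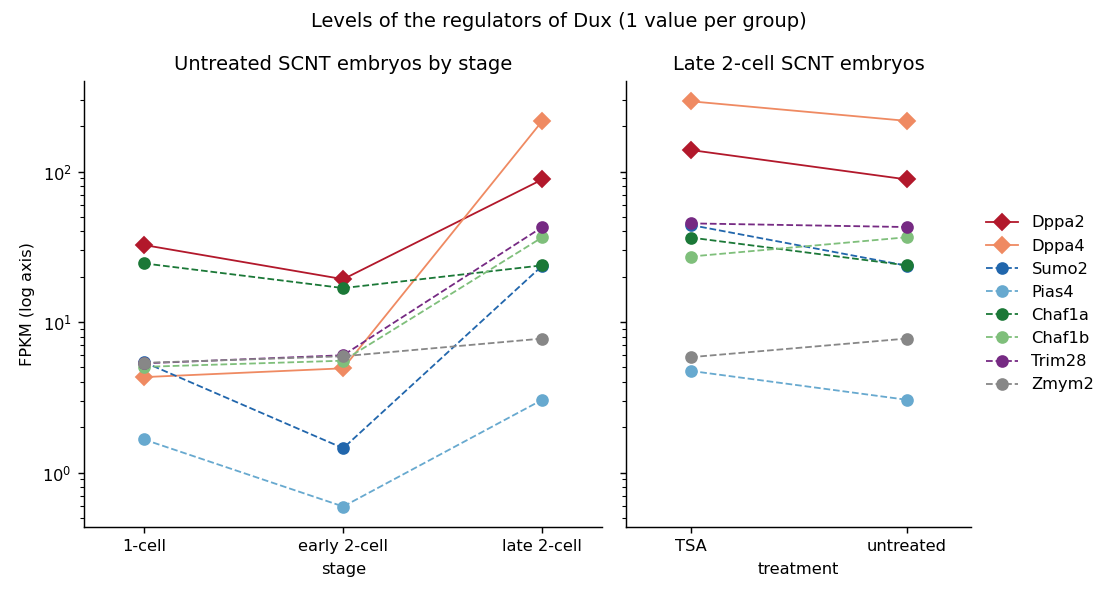
FPKM of the 8 members other than Dux on a log axis, 1 value per group, by stage in untreated embryos (left) and with TSA or without at the late 2-cell stage (right). Dppa4 has the steepest line between the 2-cell stages (217 against 4.93 FPKM), and Chaf1b and Zmym2 are lower with TSA.

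The members' differences were then read against all genes. Between late and early 2-cell embryos, 6 of 8 members were at least 2-fold higher and 0 lower, where 47.9% of all 12794 genes kept were higher and 10.9% lower. Of the 6, Pias4 was under 1 FPKM in early 2-cell embryos. It was kept through the late 2-cell value alone, so it had to be higher. All genes had a median of 0.92. Relative to that median, Dppa4 was at 4.29, Sumo2 at 2.42, Trim28 at 1.72, Chaf1b at 1.61 and Dppa2 at 1.23. Pias4, at 0.43, no longer reached 2-fold. Chaf1a (0.48) and Zmym2 (0.34) were below the median of all genes, at -0.44 and -0.58 relative to it, and were also negative after median-ratio scaling and after quantile normalization.

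Between late 2-cell and 1-cell embryos, 5 of 8 members were at least 2-fold higher and 0 lower, where 45.7% of 12880 genes were higher and 13.8% lower. The median of all genes was 0.83. Dppa4 differed by 5.36, Trim28 by 2.79, Chaf1b by 2.64, Sumo2 by 1.95 and Dppa2 by 1.42. Relative to the median, Dppa2 was at 0.59, short of 2-fold, and Pias4 and Zmym2 were at -0.23 and -0.37. Chaf1a was the lowest of the 8, with a difference of -0.04 that was -0.87 relative to the median.

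Between early 2-cell and 1-cell embryos, 0 of 8 members were at least 2-fold higher and 1, Sumo2, was lower, where 3.72% of 10117 genes were higher and 7.12% lower. Dppa2, Pias4 and Chaf1a were also lower, at -0.73, -0.74 and -0.52, while Dppa4, Trim28, Zmym2 and Chaf1b lay between 0.11 and 0.16. Pias4 was kept here through the 1-cell value alone, so it had to be lower. The median of all genes was -0.08.

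With TSA, 0 of 8 members reached 2-fold in either direction, where 2.51% of 12756 genes were higher and 4.08% lower. Their median difference was 0.47, beside -0.08 for all genes, and 6 of 8 lay above 0, where 43.3% of all genes did. Both activators and 4 of the 6 repressors were among the 6. The comparisons share columns, so they are not independent of each other.

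**Figure D3:**
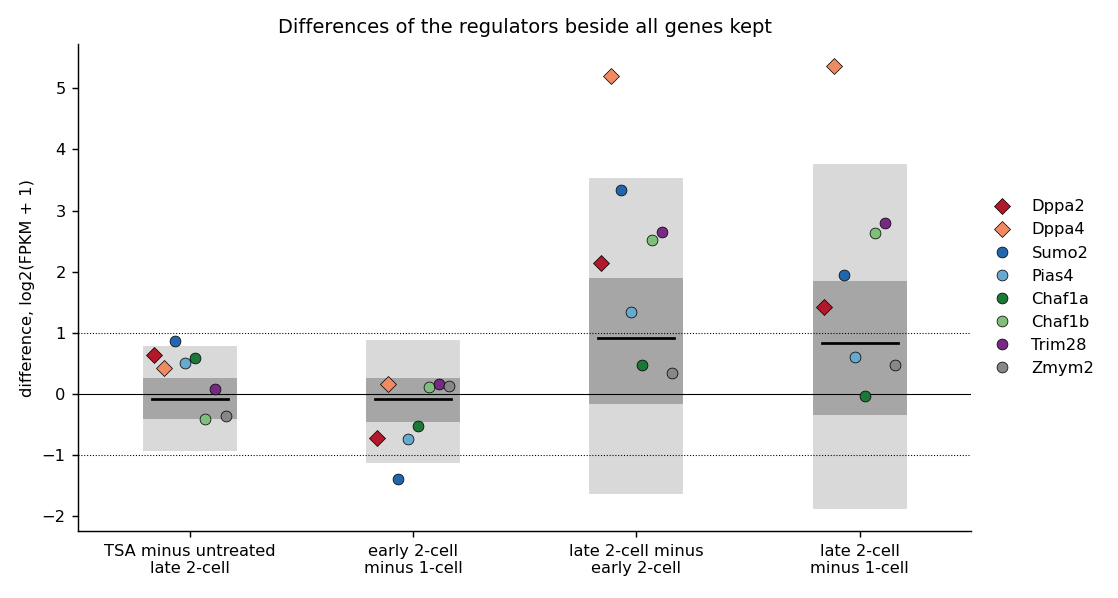
Difference on the log2(FPKM + 1) scale of the 8 members in each comparison (diamonds, activators; circles, repressors) over all genes kept (light bar, 5th to 95th percentile; dark bar, 25th to 75th; line, median). Dppa4 lies above the light bar in both comparisons of the late 2-cell stage, and Sumo2 lies above it with TSA and below it at the first cleavage.

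Activators and repressors were also summed, each sum being that of unlike genes and led by its most abundant. The activators summed to 36.8 FPKM in 1-cell, 24.2 in early 2-cell and 306 FPKM in late 2-cell embryos, and the repressors to 47.3, 36.3 and 138 FPKM. The sum of the activators was 0.78, 0.67 and 2.22 times that of the repressors over these stages. At the late 2-cell stage it was 2.64 times with TSA and 2.22 times without. Dppa4 carried most of the stage difference: Dppa2 alone was at 0.69, 0.53 and 0.64 times the sum of the repressors, and at 0.85 times with TSA.

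RefSeq promoter windows (GRCm38.p6, 250 bases before to 50 after the start) were found for 5 of the 9 members, Sumo2, Chaf1a, Chaf1b, Trim28 and Zmym2, and not for Dux, Dppa2, Dppa4 and Pias4. They are shown for Trim28 and Chaf1b, the members with the closest patterns, for Chaf1a, which differed from its partner, and for Sumo2, which had the largest difference with TSA. Capitals mark TTCCCGCC, an E2F-type motif, and CCAAT, the NF-Y motif, on either strand, chosen with the windows in view.
Trim28 (chr7:13023902-13024201, plus strand): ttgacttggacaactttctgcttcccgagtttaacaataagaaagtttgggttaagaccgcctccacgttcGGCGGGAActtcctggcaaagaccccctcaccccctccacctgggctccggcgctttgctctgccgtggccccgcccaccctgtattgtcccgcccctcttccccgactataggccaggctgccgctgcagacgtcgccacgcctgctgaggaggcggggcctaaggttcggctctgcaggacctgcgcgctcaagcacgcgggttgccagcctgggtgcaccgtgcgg
Chaf1b (chr16:93883651-93883950, plus strand): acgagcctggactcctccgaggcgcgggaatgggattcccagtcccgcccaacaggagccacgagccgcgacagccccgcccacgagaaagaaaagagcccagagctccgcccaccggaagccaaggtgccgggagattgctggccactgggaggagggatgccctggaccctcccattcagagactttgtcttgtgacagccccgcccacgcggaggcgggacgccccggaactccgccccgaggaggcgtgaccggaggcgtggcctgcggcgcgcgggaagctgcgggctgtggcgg
Chaf1a (chr17:56040166-56040465, plus strand): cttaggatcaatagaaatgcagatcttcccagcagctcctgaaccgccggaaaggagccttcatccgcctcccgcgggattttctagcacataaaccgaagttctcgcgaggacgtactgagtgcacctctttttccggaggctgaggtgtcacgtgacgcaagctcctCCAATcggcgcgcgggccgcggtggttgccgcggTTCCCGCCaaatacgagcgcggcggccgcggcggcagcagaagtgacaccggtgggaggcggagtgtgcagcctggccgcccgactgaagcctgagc
Sumo2 (chr11:115536181-115536480, minus strand): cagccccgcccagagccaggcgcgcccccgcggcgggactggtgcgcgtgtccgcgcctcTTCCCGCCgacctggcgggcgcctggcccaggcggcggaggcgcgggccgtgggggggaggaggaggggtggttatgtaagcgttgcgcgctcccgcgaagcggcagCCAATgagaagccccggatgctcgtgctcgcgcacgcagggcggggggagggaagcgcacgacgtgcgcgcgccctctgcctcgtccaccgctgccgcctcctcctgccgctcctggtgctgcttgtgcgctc

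All 4 windows were rich in G and C, at 64.0% in Trim28, 70.3% in Chaf1b, 63.0% in Chaf1a and 76.3% in Sumo2, beside a median of 52.7% over 32851 windows. CpG pairs numbered 23, 30, 32 and 42 in the same order, beside a median of 7. The E2F letters were found once each in Trim28, Chaf1a and Sumo2, starting 179, 47 and 190 bases before the start, and are held by 2.19% of all windows. They were not in the Chaf1b window. CCAAT was found once in Chaf1a and once in Sumo2, and is held by 37.4% of all windows. The letters GGGCGG on either strand, the GC box, which shares no more than part of its letters with the E2F motif, occurred 5 times in Chaf1b and 1 to 2 times in the others, and in 35.7% of all windows at least once. These are matches of letters in 1 window each.

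Other genes of the same pathways were taken from lists, which were chosen with earlier results of these data known. Genes named from a list are mainly those at either extreme of it or 2-fold apart, so they were picked for how they moved. Of 18 further genes of the SUMO cycle, 1 was at least 2-fold higher with TSA and 0 lower, beside 2.51% and 4.08% of all genes. The higher gene was Sumo3, with 32.5 FPKM in treated and 12.6 FPKM in untreated embryos. Pias2, another ligase, was at 25.8 FPKM with TSA, against 43.1 FPKM without. The median was 0.15, beside -0.08 over all genes.

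Between late and early 2-cell embryos, 6 of the 18 SUMO genes were at least 2-fold higher and 4 lower. Of all genes 47.9% were higher and 10.9% lower. Of the 18, 2 were under 1 FPKM in early 2-cell embryos and were kept through the late value alone, so they had to be higher. The median was 0.61, beside 0.92 for all genes. It was -0.46 after median-ratio scaling, beside 0.06 for all genes, and -0.01 after quantile normalization, beside -0.14 for all genes. Sae1, a subunit of the enzyme that activates SUMO, was at 44.0 FPKM in late and 7.57 FPKM in early 2-cell embryos. Ranbp2, a nuclear pore protein with ligase activity, was at 37.9 FPKM in late and 6.41 FPKM in early 2-cell embryos.

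Among 16 histone chaperones and partners around CAF-1, 0 were 2-fold apart with TSA, and their median was 0.09. Npm2, the oocyte nucleoplasmin, was at 108 FPKM with TSA, against 178 FPKM without, and Rbbp7 at 316 FPKM with TSA and 217 FPKM without. Between late and early 2-cell embryos 4 were at least 2-fold higher and 5 lower, beside 47.9% and 10.9% of all genes. The median of the 16 was -0.27, beside 0.92 for all genes. Hira, which places histone H3.3 outside replication, was at 17.8 FPKM in late and 3.20 FPKM in early 2-cell embryos. Asf1a, a chaperone that hands histones to both CAF-1 and HIRA, was at 105 FPKM in late and 524 FPKM in early 2-cell embryos.

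Of 12 genes around TRIM28, 0 were 2-fold apart with TSA, with a median of 0.06. Setdb1, the H3K9 methyltransferase that TRIM28 recruits, was at 92.5 FPKM in 1-cell, 39.3 in early 2-cell and 21.3 FPKM in late 2-cell embryos, opposite in order to Trim28. With TSA it was at 29.1 FPKM, against 21.3 without. Between early 2-cell and 1-cell embryos 1 of the 12 was at least 2-fold higher and 2 lower, beside 3.72% and 7.12% of all genes. Between late and early 2-cell embryos 4 were at least 2-fold higher and 3 lower, beside 47.9% and 10.9% of all genes. The median there was 0.35, beside 0.92 for all genes. It was -0.61 after median-ratio scaling, beside 0.06 for all genes, and -0.48 after quantile normalization, beside -0.14 for all genes. Zfp57, a zinc-finger partner of TRIM28 at imprinted genes, was at 332, 121 and 23.9 FPKM over the stages, and Zfp809, another partner, at 1.20, 4.04 and 22.3 FPKM.

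Of 15 genes related to ZMYM2 or to the LSD1 and CoREST complex, 0 were 2-fold apart with TSA. Their median was -0.07, beside -0.08 for all genes. After median-ratio scaling it was 0.07, beside 0.06 for all genes. Zmym5 was at 10.1 FPKM with TSA, against 19.1 FPKM without, and Hdac1, a deacetylase of the complex that TSA inhibits, at 53.2 FPKM with TSA and 35.6 FPKM without. Between late and early 2-cell embryos 8 were at least 2-fold higher and 2 lower, near the 47.9% and 10.9% of all genes. Of the 15, 2 were under 1 FPKM in early 2-cell embryos and were kept through the late value alone, so they had to be higher. The median of the 15 was 1.06, beside 0.92 for all genes. After quantile normalization it was -0.03, beside -0.14 for all genes. Hdac1 was at 1.14 FPKM in 1-cell, 1.78 in early 2-cell and 35.6 FPKM in late 2-cell embryos. Kdm1a, which encodes LSD1, was at 18.5, 26.8 and 8.80 FPKM over the same stages.

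The PRC1.6 complex, another repressor of germline and 2-cell genes in embryonic stem cells, had 11 of 12 genes kept, of which 0 were 2-fold apart with TSA, with a median near 0 whose sign depended on the scaling. L3mbtl2 was at 18.1 FPKM with TSA, against 13.9 FPKM without, and Max at 38.0 FPKM with TSA and 66.3 FPKM without. Between late and early 2-cell embryos 4 of the 11 were at least 2-fold higher and 0 lower, beside 47.9% and 10.9% of all genes. Of the 11, 1 was under 1 FPKM in early 2-cell embryos and was kept through the late value alone, so it had to be higher. The median was 0.55, beside 0.92 for all genes. After median-ratio scaling it was -0.40, beside 0.06 for all genes. Mga was at 215 FPKM in late and 43.6 FPKM in early 2-cell embryos. Ring1 stayed under 1 FPKM in every column.

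Further regulators reported for Dux lay on different sides of 0 with TSA, and 0 were 2-fold apart. The 3 positive ones were higher: Trp53, the gene of p53, was at 18.4 FPKM with TSA, against 11.1 FPKM without, Nelfa at 40.5 and 27.7 FPKM, and Smarca5 at 93.4 and 75.2 FPKM in the same order. Of 6 negative ones 1 lay above 0, with a median of -0.15. Over all genes 43.3% lay above 0, with a median of -0.08. After median-ratio scaling the median of the 6 was -0.01 and that of all genes 0.06. Smchd1, a chromatin protein of X inactivation and repeat silencing, was at 55.7 FPKM with TSA, against 87.1 FPKM without. Ehmt2, the H3K9 methyltransferase G9a, was at 0.025 FPKM in 1-cell, 0.24 in early 2-cell and 10.2 FPKM in late 2-cell embryos, and Ncl, nucleolin, at 259, 106 and 331 FPKM.

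Reported target genes of Dux were read beside it, although Dux itself was listed near 0. With TSA, 3 of 29 kept were at least 2-fold higher and 0 lower, beside 2.51% and 4.08% of all genes. Their median was 0.41, beside -0.08 for all genes. Of the 29, 2 were under 1 FPKM in untreated embryos and were kept through the TSA value alone, so they had to be higher. Between late and early 2-cell embryos 24 of 27 were at least 2-fold higher and 1, Tcstv1, was lower. Of all genes 47.9% were higher and 10.9% lower. Of these 27, 14 were under 1 FPKM in early 2-cell embryos and were kept through the late 2-cell value alone, so they had to be higher. Usp17lb was at 276 FPKM with TSA, against 110 FPKM without, whereas Zscan4c was at 3.29 FPKM with TSA, against 5.29 FPKM without. Members of these families can share reads.

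Across the first cleavage 3.72% of all genes kept were at least 2-fold higher and 7.12% lower, as given above. Of 16 SUMO genes 0 were at least 2-fold lower at the early 2-cell than at the 1-cell stage. In the same comparison Hat1, a histone acetyltransferase, was the only one of 16 chaperones and partners at least 2-fold lower, at 65.7 against 171 FPKM. Zmym1 was the only one of 14 ZMYM2-related genes at least 2-fold lower, at 8.59 against 18.8 FPKM. Of 10 PRC1.6 genes 0 differed by 2-fold. Of 5 further negative regulators Ncl was at least 2-fold lower, at 106 against 259 FPKM, and Ehmt1 just past 2-fold lower, at 5.19 against 11.4 FPKM. Of 15 target genes 5 were at least 2-fold higher and 3 lower. Of the 15, 2 were under 1 FPKM in 1-cell embryos. They were kept through the early 2-cell value alone, so they had to be higher. Zscan4c and D5Ertd577e were under 1 FPKM in early 2-cell embryos and were kept through the 1-cell value alone. These had to be lower.

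**Figure D4:**
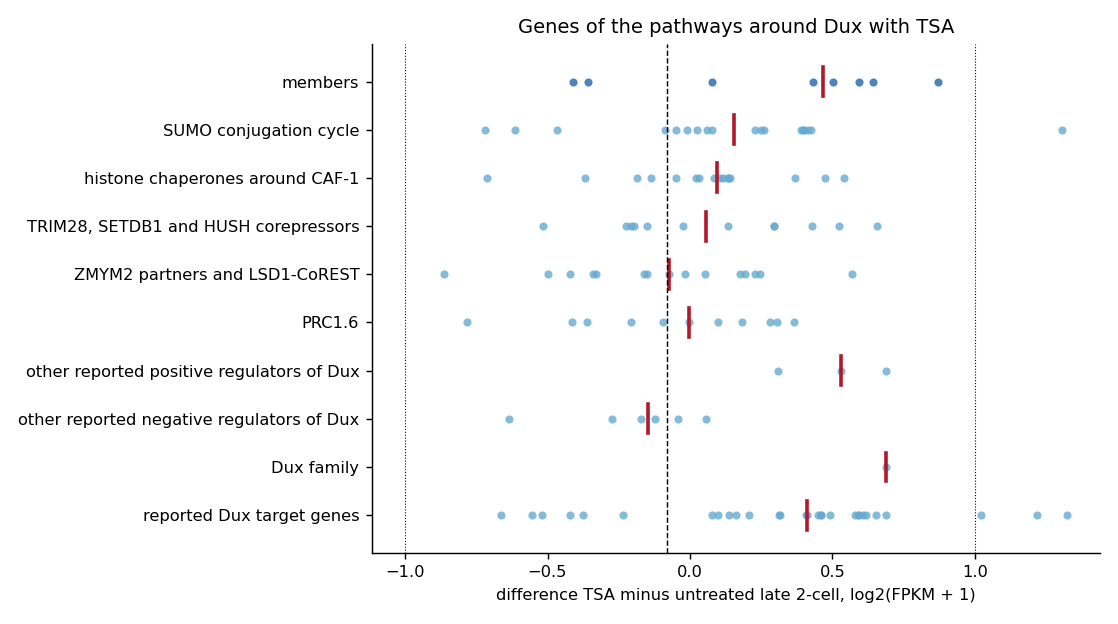
Difference with TSA on the log2(FPKM + 1) scale for each kept gene of the members and of 9 pathway lists (points), with each list's median (red) and the median of all genes (dashed). Dotted lines mark 2-fold. The members' median is 0.47, and Sumo3 is the gene of the SUMO list past 2-fold.

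Genes with the pattern most like each member were sought over the 4 columns, by the Euclidean distance between log2(FPKM + 1) profiles after taking off each gene's mean, among 8615 genes that reached 5 FPKM. With 4 points many genes lie near: 150 were within 0.25 of Zmym2, 113 of Trim28, 80 of Chaf1b, 34 of Pias4, 31 of Chaf1a, 27 of Dppa2, 11 of Dppa4 and 2 of Sumo2. The nearest to Dppa2 was Crlf3 (0.05), followed by Tmem42 and Tpgs1. The nearest to Dppa4 was Snord55 (0.09), followed by H2-T9 and Trim43c. Rsrp1 (0.23), Gins3 and Rpl10l were nearest to Sumo2, and Dna2 (0.06), Noc4l and Pag1 to Pias4. Prex2 (0.13) and Smg8 were among the nearest to Chaf1a, and Mospd3 (0.04), Xk and Cnn1 to Chaf1b. Nkx6-2 (0.03), Arf5 and Spryd4 were nearest to Trim28, and Ccdc91 (0.03), Rev3l and Ube2a to Zmym2. Among the members themselves the closest pair was Chaf1b and Trim28 (0.52), while Dppa2 and Dppa4 were 3.45 apart and Chaf1a and Chaf1b 2.04 apart.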

How the data were processed

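The authors deposited log2 values of FPKM with 1 added, per the file headers. Tools in the submitters' processing notes, with no role given, are HISAT2 2.1.0, Bowtie2 2.3.4.3, SAMtools 1.7, StringTie 1.3.4, Cufflinks and deepTools 2.5.7, with build mm10. Neither the annotation nor the way libraries became 1 column is stated. Of the columns, 4 were matched to groups and 2 were not used; that of 1-cell embryos is named by 13 h and matched by collection time. Low FPKM times gene span (up to 2000 bp) gave no clear whole-read steps (23.8% to 25.9% within 0.1 of a whole multiple, 20% with none), so depth is unknown.

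Differences were computed with pandas 2.3.3 and numpy 2.4.6 in Python 3.11.15 and tested on simulated data. A gene was kept if it reached 1 FPKM in either column compared, so a gene near 0 in one was kept only if high in the other. All 9 members are named, with list genes of at least 5 FPKM at either extreme or 2-fold apart, and 3 genes per member by likeness (predicted genes left out). Some of these genes are not reported here. Genes named for another reason (Duxbl1, Duxbl2, Duxbl3, Ring1, markers and Gapdh) were chosen after their values were seen. Members and lists were chosen with earlier results of these data known. Alternatives were pseudocounts of 0.1 and 5, no filter or 5 FPKM, median-ratio scaling, quantile normalization, a call at 1.5-fold and, added after seeing the data, taking off the median of all genes.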

Additional observations from a re-analysis of the deposited data

How the results depend on the processing

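With 1 value per group, no replicate could be left out. No paired analysis was possible because the columns carry no replicate number. Of 192 recomputed member differences, 164 kept their direction and side of the call, 8 fell short of it and 2 passed it. A further 6 short of 2-fold were past the lower call of 1.5-fold. Of the rest, 12 that had not reached 2-fold changed sign, and 0 past 2-fold did. The lower call leaves the differences as they are, and a pseudocount cannot change a sign. Only the scalings and the median taken off could change one, so part of the 164 was fixed in advance. With TSA, 1 member was past 2-fold after median-ratio scaling and 0 in the other settings with that call, while 3 were past the lower call of 1.5-fold. For early 2-cell against 1-cell embryos, 2 members were past 2-fold with a pseudocount of 0.1 and 0 with 5, while 3 were past the lower call.

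The percentage of kept genes past the threshold in either direction, with TSA, was 6.59, against 13.2 with a pseudocount of 0.1, 1.42 with 5, 3.44 with no filter and 24.7 at 1.5-fold. For early 2-cell against 1-cell embryos it was 10.8, against 18.4, 4.19, 4.49 and 29.6 in the same settings. With a pseudocount of 5 and with no filter it was 34.4 and 30.8 for late against early 2-cell embryos (58.8 as reported), and 35.4 and 31.4 for late 2-cell against 1-cell embryos (59.4). Of the genes past 2-fold, 38.1% were higher with TSA, against 61.2% after median-ratio scaling, 52.7% after quantile normalization, 51.0% with the median taken off and 49.2% with a pseudocount of 5. For early 2-cell against 1-cell embryos it was 34.3%, against 44.4%, 47.7%, 43.7% and 21.2% in the same settings and 23.6% with the filter at 5 FPKM. As reported, and then after each scaling and with the median taken off, it was 81.4%, against 54.1%, 49.0% and 47.8%, for late against early 2-cell embryos, and 76.8%, against 52.5%, 47.4% and 46.9%, for late 2-cell against 1-cell embryos. Of 215 recomputed list medians, 23 had the other sign. The cause of these changes was not tested.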
